A study of Homo sapiens with 12 samples.

Results

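The genes described here are the cyclins and the cyclin-dependent kinases (CDKs) that drive the cell cycle: the D-type cyclins CCND1, CCND2 and CCND3 with their kinases CDK4 and CDK6, the E-type cyclin CCNE1 with CDK2, and CCNA2, CCNB1 and CDK1. They were chosen by name, as the rows of the deposited RNA table that carry these symbols, and make up 10 of its 35337 rows. The RNA was from EndoC-βH3, an established human cell line made from fetal pancreas that has properties of beta cells. Its cells carry transgenes for hTERT and for the large T antigen of SV40, which keep them dividing until 4-hydroxy tamoxifen switches on the recombinase CreER and the transgenes are cut out. The 6 senescent samples had 3 weeks of 4-hydroxy tamoxifen and the 6 non-senescent samples are labelled control, all of genotype WT. Each group holds 2 samples of batch A and 4 of batch B, letters taken from the sample titles. As a model, this is 1 line, and large T antigen binds the RB proteins and p53, so loss of the transgene, exposure to tamoxifen and senescence cannot be told apart here.

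CDKs are active only when bound to a cyclin. D-type cyclins with CDK4 or CDK6 phosphorylate RB early in G1, which releases E2F factors, and E2F then drives transcription of CCNE1, CCNA2, CDK1 and other genes of S phase. Cyclin E with CDK2 starts S phase, cyclin A2 acts in S and G2 phases, and cyclin B1 with CDK1 starts mitosis. Adult beta cells seldom divide, and CCND2 and CDK4 are known for their part in beta cell growth in mice.

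Of the 10 genes, 6 fell in senescent cells (CDK1, CCNB1, CCNA2, CDK2, CDK4 and CCNE1), 1 rose (CDK6), 1 did not pass the test (CCND3), and CCND1 and CCND2 were too low to test. The largest falls were of the mitotic and S-phase genes: CDK1 was 7.85-fold, CCNB1 6.26-fold, CCNA2 5.81-fold and CDK2 5.17-fold lower. The calls came from limma across 13847 genes whose normalised read count averaged 5 or more, and needed a change of more than 1.5-fold with an adjusted p (Benjamini-Hochberg) below 0.1. A normalised read count is the number of reads of a gene divided by a size factor of the library. By this rule 11.8% of all genes tested were called lower and 11.6% higher. The median log2 fold change was -1.54 over the 8 tested cyclins and CDKs and 0.01 over all genes tested. The deposited scaling gave 49.6% of all calls as higher, and a scaling of all libraries to equal totals gave 37.0%, with a median log2 fold change of all genes of -0.09. The calls of the 8 genes were the same under that scaling. In bulk RNA, fewer cells in a phase of the cycle and less RNA per cell cannot be told apart.

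Depth was 8873569 to 17106776 reads per library in batch A and 4672924 to 7063264 in batch B. Of the 10 beta cell markers, 4 were called higher (MAFA, INS, IAPP and PDX1) and 1 lower (PCSK1), and their summed normalised read count was 33400 to 54120 in non-senescent and 74640 to 211000 in senescent libraries. Without INS, the sum of the other 9 was 19110 to 23050 in non-senescent and 23660 to 25460 in senescent libraries. Of 13 markers of other pancreatic and stromal cells, 8 were tested, 4 were called lower (SST, GCG, KRT19 and PTPRC) and 1 higher (CPA1), and no marker of either list was at 0 in all libraries. SST, the hormone of delta cells, took 2.32% to 4.04% of reads in non-senescent libraries, more than INS with 0.161% to 0.483%. Without SST and GCG the summed level of the other 11 markers was 304 to 573 in non-senescent and 242 to 450 in senescent libraries. The part of other cell types in the results below was not tested.

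The promoters of the genes with the largest falls are shown first, because members that fell together can be compared for the sites that the cell-cycle literature names. RefSeq promoters (GRCh38.p14) were found for 7 of the 10 genes (all but CCND1, CCND2 and CDK2), with 11 start sites in all. A script searched 250 bases before and 50 bases after each start on both strands for the CCAAT box (CCAAT), for the cell-cycle homology region (CHR; TTTGAA) and for E2F sites (TTTGGCGC, TTTCGCGC or TTTCCCGC). The motifs do not overlap one another in the matches found. Of 35116 RefSeq promoters of the same length, 34.6% held CCAAT, 15.2% held TTTGAA and 2.7% held an E2F match. Capitals mark the matches in the 250 bases before the start, and ATTGG is CCAAT on the other strand.
CCNA2 (chr4:121823884-121824133, minus strand): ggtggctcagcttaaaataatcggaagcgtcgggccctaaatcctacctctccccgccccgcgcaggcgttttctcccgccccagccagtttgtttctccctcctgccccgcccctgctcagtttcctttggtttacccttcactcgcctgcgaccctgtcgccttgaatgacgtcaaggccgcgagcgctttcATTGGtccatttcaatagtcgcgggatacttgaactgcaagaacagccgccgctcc
CCNB1 (chr5:69166900-69167149, plus strand): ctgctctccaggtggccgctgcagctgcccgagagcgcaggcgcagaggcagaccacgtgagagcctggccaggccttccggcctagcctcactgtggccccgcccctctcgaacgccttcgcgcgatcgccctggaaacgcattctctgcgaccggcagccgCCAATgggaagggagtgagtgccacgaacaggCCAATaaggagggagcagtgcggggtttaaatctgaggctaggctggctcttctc
CDK1, the upstream start (chr10:60778081-60778330, plus strand): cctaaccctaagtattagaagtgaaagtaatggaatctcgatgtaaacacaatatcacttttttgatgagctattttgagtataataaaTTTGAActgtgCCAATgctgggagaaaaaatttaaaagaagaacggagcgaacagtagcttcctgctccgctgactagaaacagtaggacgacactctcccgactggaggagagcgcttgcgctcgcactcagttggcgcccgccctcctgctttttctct
CDK1, bases -83 to -54 from the downstream start (chr10:60778395-60778424, plus strand): ctctgATTGGctgcTTTGAAagtctacggg
CCNA2 held 1 CCAAT box, at -56 to -52 from the start, and CCNB1 held 2, starting at -87 and -55. The downstream CDK1 start had CCAAT boxes starting at -78 and -46, TTTGAA starting at -69 and -13, and the E2F match TTTCGCGC starting at -128. In the 50 bases after the start, it had TTTGAA on the other strand from 9 to 14. The upstream CDK1 start had TTTCGCGC from 19 to 26. The windows of the 2 CDK1 starts overlap, and this is the same site as the match at -128 from the downstream start. CCND3 had a CCAAT box at 2 of its 3 starts, and no match was found in the windows of CDK4, CDK6 and CCNE1. A match in these letters is a description of the sequence and no evidence of binding. Only these exact letters were searched, so a missing match is no evidence that a site is absent.

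Among the D-type cyclins, only CCND3 had reads enough to test. CCND1, the D-type cyclin that many growth signals induce (chr11:69641156-69654474, plus strand, GRCh38), had 1 read in all 12 libraries, in non-senescent A1. CCND2 (chr12:4269771-4305353, plus strand) had 0 reads in all 12. A count of 0 allows up to 3 reads in a library, which is 1.35 to 4.52 normalised read counts. No fold change is given for either gene, because both groups lie under that limit, which covers counting error only. The end of CCND2 is also covered by the protein-coding gene ENSG00000285901 on the same strand, which was matched to no row of the table, and reads given to it would be missing from CCND2. LTO1, listed under its older symbol ORAOV1, covers the end of CCND1 on the opposite strand and had 38 to 197 reads per library. The low values of CCND1 and CCND2 are therefore those of the deposited rows, and reads counted elsewhere were not tested.

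CCND3 (chr6:41934934-42050357, minus strand) read 97.3 and 121 in the non-senescent libraries A1 and A2, and 58.7, 90.9, 71.6 and 68.3 in B1 to B4. The senescent libraries A1 and A2 read 90.2 and 82.1, and B1 to B4 read 40.0, 65.1, 69.8 and 73.5. Both senescent libraries of batch A lay below both non-senescent ones, but the groups overlapped in batch B. The mean was 84.6 ± 22.9 in non-senescent and 70.1 ± 17.3 in senescent cells (SD, n = 6 each). CCND3 did not pass the limma test, with a log2 fold change of -0.27 ± 0.17 (SE) and an adjusted p of 0.220, and its 95% confidence interval ran from -0.62 to 0.08. CCND3 therefore lacked a call at this depth, while a fall of up to 0.62 on the log2 scale lies inside the interval.

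CDK4, a kinase of the D-type cyclins (chr12:57747727-57756013, minus strand), fell. Non-senescent libraries read 924 and 780 in batch A and 1423, 1181, 960 and 1205 in batch B. Senescent libraries read 572 and 677 in batch A and 669, 632, 626 and 711 in batch B. All senescent libraries lay below all non-senescent libraries, and they were closer to one another, with a mean of 648 ± 48.6 against 1079 ± 234 (SD, n = 6 each). The log2 fold change was -0.71 ± 0.10 (SE), a 1.64-fold fall with a limma adjusted p of 2.65e-05. Within batch A it was -0.45 ± 0.15, short of 1.5-fold, and within batch B it was -0.84 ± 0.11. CDK4 shares the last 500 bases of its transcript with TSPAN31 on the opposite strand, and use of the strand in counting is not stated. TSPAN31 rose, by 1.23 ± 0.19 on the log2 scale, from a mean of 25.8 ± 8.04 to 61.9 ± 19.3 (SD, n = 6 each).

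CDK6, the close relative of CDK4 that binds the same cyclins (chr7:92604921-92836573, minus strand), rose. Non-senescent libraries read 10.6 and 15.1 in batch A and 7.53, 12.4, 7.31 and 13.7 in batch B. Senescent libraries read 17.5 and 16.9 in batch A and 19.4, 33.6, 18.3 and 46.1 in batch B. Every senescent library lay above every non-senescent one, although the values rest on only 5 to 39 reads per library. The mean was 11.1 ± 3.22 in non-senescent and 25.3 ± 11.96 in senescent cells (SD, n = 6 each). The log2 fold change was 1.06 ± 0.30 (SE), 2.09-fold, with a limma adjusted p of 0.0102. It was 0.42 ± 0.50 within batch A and 1.38 ± 0.35 within batch B, and batch A alone gave no call (limma adjusted p = 0.296). CDK6 was the only gene of the 10 called higher.

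**Figure D1:**
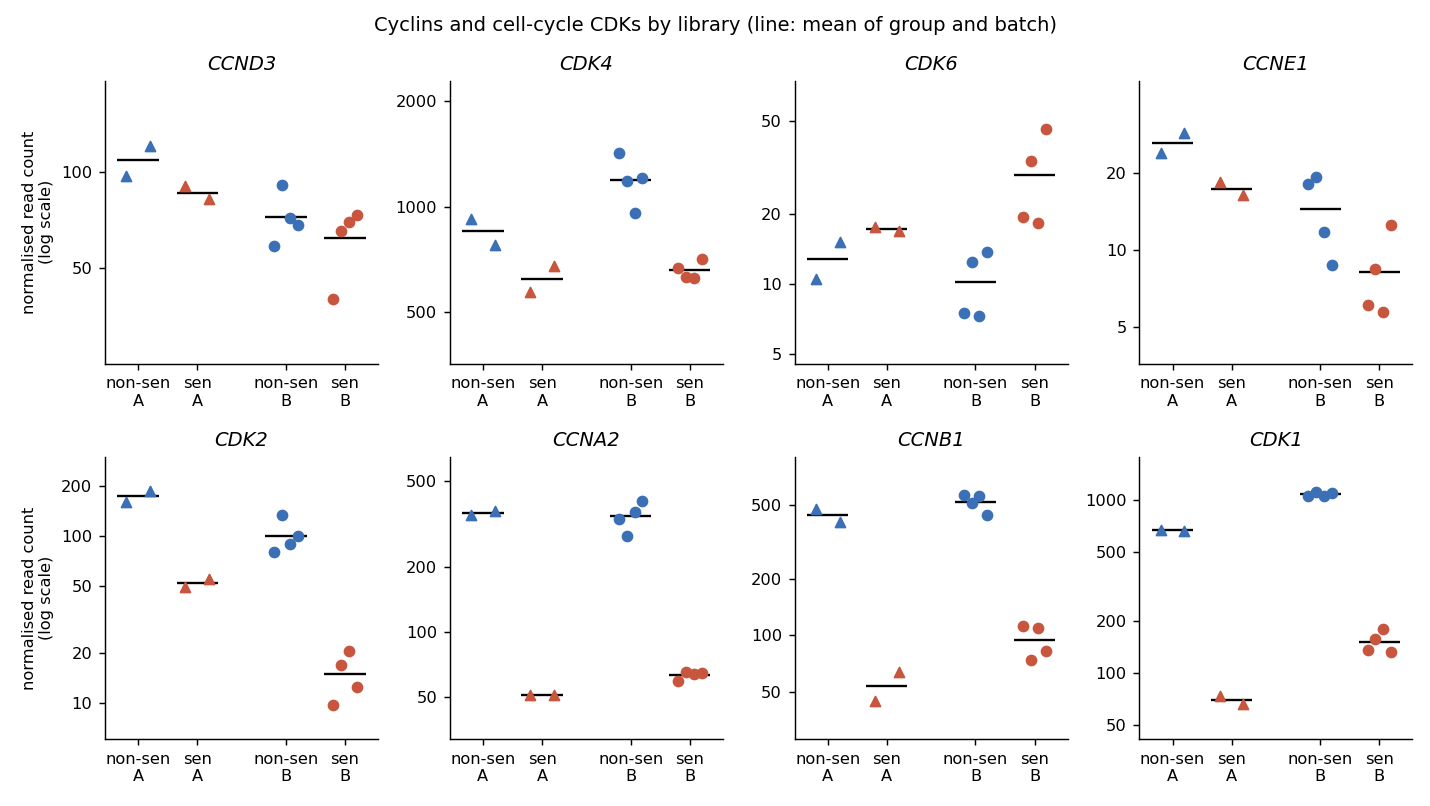
Normalised read counts (log axis) of the 8 tested genes in each of the 12 libraries, split by group (non-sen, sen) and batch (triangles A, circles B), with a line at the mean of each group and batch. CDK1, CCNB1, CCNA2, CDK2 and CDK4 were lower in every senescent library of both batches, CDK6 was higher in every one, and CCND3 and CCNE1 overlapped in batch B.

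CCNE1, the E-type cyclin (chr19:29811991-29824312, plus strand), fell, but its call was unstable. Non-senescent libraries read 23.9 and 28.6 in batch A and 18.1, 19.3, 11.7 and 8.70 in batch B. Senescent libraries read 18.4 and 16.3 in batch A and 6.06, 8.396, 5.72 and 12.5 in batch B. The groups stood apart in batch A and overlapped in batch B, where senescent B4 lay above non-senescent B3 and B4. With 5 to 43 reads per library, the mean was 18.4 ± 7.41 in non-senescent and 11.2 ± 5.36 in senescent cells (SD, n = 6 each). The log2 fold change was -0.69 ± 0.28 (SE), 1.61-fold lower, with a limma adjusted p of 0.0634, and edgeR on the recovered reads gave an adjusted p of 0.0714. The call was lost in 12 of 23 alternatives. These include leaving out non-senescent A2 (-0.67, limma adjusted p = 0.110), B1 (-0.60, 0.123) or B2 (-0.58, 0.132), or senescent A2 (-0.68, 0.103), B1 (-0.61, 0.114) or B3 (-0.60, 0.120), and each batch alone.

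The other E-type cyclin, CCNE2, gave a clearer difference. It fell from a mean of 103 to 24.6, a log2 fold change of -2.06 ± 0.19 (SE, n = 6 each) with a limma adjusted p of 1.67e-07, and was lower in every senescent library of both batches. The difference between the changes of CCNE1 and CCNE2 was not tested.

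CDK2, the kinase of the E-type cyclins and of cyclin A2 (chr12:55966781-55972789, plus strand), fell strongly. Non-senescent libraries read 161 and 186 in batch A and 79.8, 134, 89.1 and 99.4 in batch B. Senescent libraries read 49.4 and 55.0 in batch A and 9.70, 16.8, 20.6 and 12.5 in batch B. Every senescent library lay below every non-senescent one, and batch A read higher than batch B in both groups. The mean went from 125 ± 42.5 to 27.3 ± 19.7 (SD, n = 6 each), a log2 fold change of -2.37 ± 0.22 (SE) with a limma adjusted p of 1.98e-07. The fall was 1.71 ± 0.33 on the log2 scale within batch A and 2.70 ± 0.24 within batch B. PMEL, on the opposite strand at the end of CDK2, had only 39 reads in all 12 libraries.

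CCNA2 (chr4:121816444-121823883, minus strand), whose promoter with 1 CCAAT box is shown above, fell to a nearly even level in all senescent libraries. Non-senescent libraries read 349 and 365 in batch A and 334, 278, 361 and 406 in batch B. Senescent libraries read 51.2 and 50.7 in batch A and 59.4, 65.1, 64.1 and 64.8 in batch B. The groups were far apart, with 278 as the lowest non-senescent and 65.1 as the highest senescent value. The mean went from 349 ± 42.2 to 59.2 ± 6.72 (SD, n = 6 each), a log2 fold change of -2.54 ± 0.12 (SE) with a limma adjusted p of 2.59e-11. EXOSC9 lies on the opposite strand at the end of CCNA2 and also fell, from a mean of 470 ± 64.9 to 238 ± 49.6 (SD, n = 6 each). Reads of this gene and CCNA2 may not have been told apart.

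CCNB1, the main mitotic cyclin (chr5:69167135-69178245, plus strand), fell in both batches. Non-senescent libraries read 473 and 401 in batch A and 563, 512, 558 and 440 in batch B. Senescent libraries read 44.4 and 63.4 in batch A and 112, 73.5, 110 and 82.2 in batch B. No values overlapped, and the senescent libraries of batch A were the lowest. The mean went from 491 ± 65.0 to 80.8 ± 26.3 (SD, n = 6 each), a log2 fold change of -2.65 ± 0.14 (SE) with a limma adjusted p of 2.39e-10. CCNB2, the second B-type cyclin, fell from 598 to 75.3, a log2 fold change of -3.04 ± 0.17 (SE, n = 6 each) with a limma adjusted p of 3.47e-10.

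CDK1, the mitotic kinase (chr10:60778331-60794852, plus strand), had the largest fall of the 10 genes. Non-senescent libraries read 668 and 663 in batch A and 1048, 1107, 1054 and 1091 in batch B. Senescent libraries read 73.2 and 65.8 in batch A and 135, 157, 179 and 132 in batch B. Batch B was higher than batch A in both groups, and the lowest non-senescent library still read above the highest senescent one. The mean went from 938 ± 213 to 124 ± 45.2 (SD, n = 6 each), a log2 fold change of -2.97 ± 0.10 (SE) with a limma adjusted p of 1.26e-12.

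Every senescent library was lower than every non-senescent library of its batch for 5 genes (CDK1, CCNB1, CCNA2, CDK2 and CDK4) and higher for 1 (CDK6). Among all genes tested, 11.9% were lower in this way and 11.9% higher. The batch by group interaction was called for 0 of the 8 genes by limma, against 4.21% of all genes tested, with adjusted p from 0.252 for CDK2 to 0.936 for CCND3. At an unadjusted p under 0.05 the interaction was met by 2 of them, CDK2 and CDK1, and by 15.2% of all genes tested. For CDK1 the log2 fold change was -3.24 ± 0.15 in batch A and -2.84 ± 0.10 within batch B. CCNB1 was at -3.01 ± 0.22 in batch A and -2.46 ± 0.16 in batch B, and for CCNA2 it was -2.78 ± 0.18 and -2.41 ± 0.13. These 3 genes and CCND3 (-0.33 in batch A, -0.24 in batch B) had the larger point estimate in batch A. CDK2, CDK4, CDK6 and CCNE1 (-0.57 in batch A, -0.75 in batch B) had it in batch B. With 2 samples per group in batch A, the standard errors of the differences ranged from 0.18 for CDK1 to 0.61 for CDK6.

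**Figure D2:**
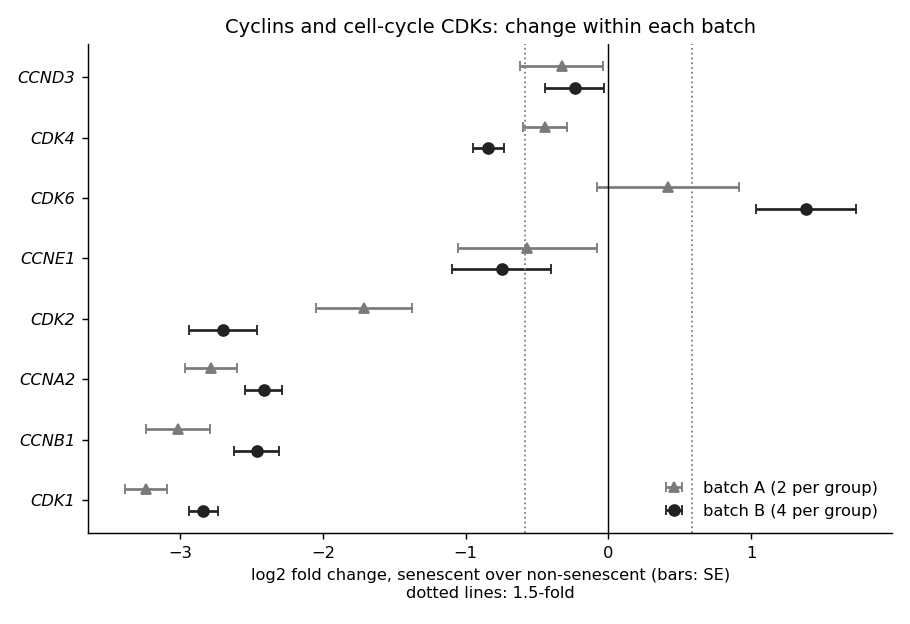
Log2 fold change of senescent over non-senescent cells (x axis) for the 8 tested genes within batch A (triangles, 2 samples per group) and batch B (circles, 4 per group), with bars of 1 SE and dotted lines at 1.5-fold. CDK1 was at -3.24 in batch A and -2.84 in batch B, and CDK6 was at 0.42 and 1.38.

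The balance between relatives was compared as the log2 ratio of their values in the same library, which no scaling of the library changes apart from the pseudocount of 1. Of 5 pairs planned, the 3 among D-type cyclins could not be formed, because CCND1 had 1 read and CCND2 had 0 reads. CDK6 to CDK4 was -6.32 and -5.60 in the non-senescent libraries of batch A and -7.38, -6.46, -6.85 and -6.36 in those of batch B. In senescent libraries it was -4.95 and -5.24 in batch A and -5.04, -4.19, -5.02 and -3.92 in batch B. All senescent ratios were above all non-senescent ones. The mean log2 ratio went from -6.50 ± 0.60 to -4.73 ± 0.54 (SD, n = 6 each), a difference of 1.77. A two-sided exact permutation test within batches gave p = 0.00476, the smallest that its 420 arrangements allow (adjusted over 2 pairs, 0.00952). CDK6 was higher and CDK4 lower in every senescent library, so the ratios had to separate and this p was fixed by those values. It adds no support to the separate results of CDK4 and CDK6. Within batch A the difference was 0.86 and within batch B it was 2.22.

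CDK2 to CDK1 differed mainly by batch. The log2 ratio was -2.05 and -1.83 in the non-senescent and -0.56 and -0.26 in the senescent libraries of batch A. In batch B it was -3.70, -3.04, -3.55 and -3.44 in non-senescent and -3.66, -3.15, -3.06 and -3.31 in senescent libraries. The groups were apart in batch A, with a difference of 1.53, and overlapped in batch B, with a difference of 0.14. Over all 12 libraries the difference of 0.60 did not pass the exact permutation test (p = 0.0762, adjusted 0.0762). The difference between the batches was not tested for this ratio.

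**Figure D3:**
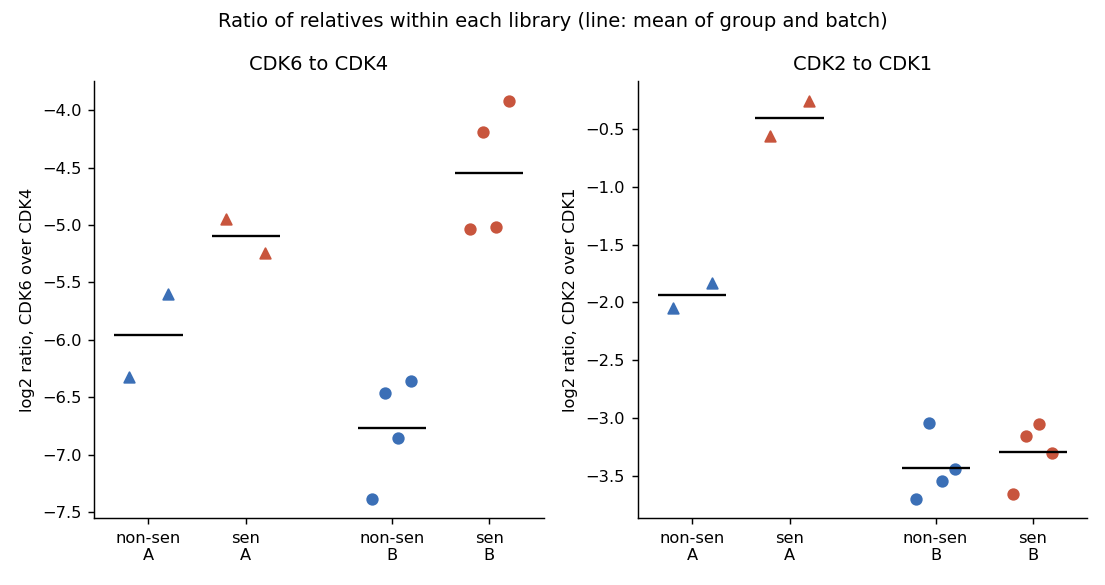
Log2 ratio of CDK6 over CDK4 (left) and of CDK2 over CDK1 (right) in each library, by group and batch (triangles A, circles B), with a line at the mean of each group and batch. The 6 senescent CDK6 to CDK4 ratios lie between -5.24 and -3.92, above all non-senescent ones, and the CDK2 to CDK1 ratios overlap in batch B.

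CCNA2, CCNB1 and CDK1 moved together across the libraries. With log2 values centred within batch, Pearson's r over 12 samples was 0.99 for CCNA2 with CDK1, 0.98 for CCNB1 with CDK1 and 0.98 for CCNA2 with CCNB1. CDK6 had an r of -0.75 with CDK1. The samples share the difference between groups, and once each group was also centred r was 0.05 for CCNA2 with CDK1, -0.08 for CCNB1 with CDK1, -0.33 for CCNA2 with CCNB1 and -0.26 for CDK6 with CDK1. Among all pairs of the 8 tested genes, r after that centring was largest in size for 3 pairs. These were CDK2 with CDK1 (0.95 before, 0.76 after), CCND3 with CDK2 (0.59 before, 0.77 after) and CDK6 with CCNB1 (-0.78 before, -0.77 after). They are the extremes of many pairs over 12 samples with the group and batch means removed, and were not tested.

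The genes most like each member were found by r with values centred within batch only, among genes whose normalised read count averaged 20 or more. The difference between groups therefore enters this r, and the genes named are the highest of 11681 or 11682 compared. They are given as a description with no p, and likeness within groups was not tested. For CDK1 they were NUSAP1 and DSN1 (r = 0.996 each), which act on the spindle and the kinetochore, and HES6 (0.995). DSN1 (0.997), PRC1 (0.995), a microtubule bundling factor of cell division, and NUSAP1 (0.994) were most like CCNA2. For CCNB1 the order was TOP2A (0.993), the topoisomerase that untangles chromosomes, CDT1 (0.992), which licenses replication origins, and NUSAP1 (0.991). CDK2 was closest to DDX39A (0.988), PSAT1 (0.987), an enzyme of serine synthesis, and PRPS2 (0.985), an enzyme of nucleotide synthesis. CDK4 was closest to NDUFB8 (0.986), a subunit of mitochondrial complex I, FOXRED2 (0.982) and POLR2F (0.971), a subunit of RNA polymerases. Likeness was lower for the remaining genes: CDK6 was closest to ZFP36L2 (0.940), ERLEC1 (0.938) and UGT3A1 (0.929), CCND3 to PRKCQ (0.919), MSL2 (0.895) and RDH5 (0.889), and CCNE1 to PSME3 (0.913), MIS18A (0.912) and FAM207A (0.909).

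Calls in the lists that follow stand beside 11.8% of all genes tested called lower and 11.6% called higher. Of 21 other cyclins 18 were tested and 3 were called lower, namely CCNB2, CCNE2 and CCNF (log2 fold change -0.91 ± 0.17), a cyclin that marks proteins for destruction. By limma, edgeR and DESeq2 0 of the 18 were called higher, and the median log2 fold change of the 18 was 0.06. CCNG2, CCNK, CCNL2 and CCNT2 were higher with limma adjusted p of 0.00243 to 0.0640 and missed the call only through the 1.5-fold limit. They were also the 4 higher at an unadjusted limma p under 0.05, which 23.9% of all genes tested met in that direction and 22.8% in the lower direction. Of the 4, CCNT2, a partner of the elongation kinase CDK9, had the largest difference at 0.54 ± 0.13. Of 17 other CDKs 16 were tested and only CDK18 was called, at -1.26 ± 0.39 with 67 reads in all. Their median was 0.06, and many of them act in transcription, such as CDK7, CDK9 and CDK12.

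Activators and partners of the CDKs mostly fell. Of 11 such genes 10 were tested, 8 were called lower and 0 higher, beside 11.8% and 11.6% of all genes tested. Their median log2 fold change was -1.92. At an unadjusted limma p under 0.05 the count was 9 lower and 0 higher, and edgeR and DESeq2 also called 0 higher. The largest were PLK1 (-2.67 ± 0.12), a mitotic kinase, and the phosphatases CDC25C (-2.66 ± 0.31) and CDC25A (-2.10 ± 0.14), which remove inhibitory phosphates from CDKs.

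Inhibitors went both ways. Of 10 inhibitory kinases and CDK inhibitors 5 were called lower and 2 higher, beside 11.8% and 11.6% of all genes tested. Their median was -0.59. CDKN1A, the p53 target p21 that binds CDK2 complexes, rose by 3.92 ± 0.35 on the log2 scale (limma adjusted p = 1.08e-07), and CDKN1C rose by 1.55 ± 0.07. Non-senescent libraries read CDKN1A at 24.5 to 76.0. Senescent libraries read 134 and 133 in batch A and 1286, 1478, 1353 and 1501 in batch B. On the log2 scale CDKN1A rose by 2.18 within batch A and by 4.78 within batch B, and the interaction passed the limma test (adjusted p = 0.00191). In the same libraries CDK1, CCNB1, CCNA2 and the uncalled CCND3 (-0.33 in batch A, -0.24 in batch B) had the larger fall by point estimate in batch A. CDK2 (-1.71 in batch A, -2.70 in batch B), CDK4 (-0.45, -0.84) and CCNE1 (-0.57, -0.75) had it in batch B. None of these interactions was called, and a relation to CDKN1A was not tested. CDKN3 (-2.68 ± 0.13), a phosphatase of CDKs, and PKMYT1 (-2.39 ± 0.18), the kinase that inhibits CDK1, were among those that fell. CDKN2A encodes p16, an inhibitor of CDK4 and CDK6. Its log2 fold change was -0.52 ± 0.07 (limma adjusted p = 1.60e-05), short of the 1.5-fold limit, with means of 6288 in non-senescent and 4247 in senescent cells. These values are RNA of the whole gene row. The paper reports that p16 protein rose after Cre activation, to a varying degree between cells.

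Of 19 RB proteins, E2F factors and their partners, all tested, 9 were called lower and 0 higher by limma, with a median of -0.60, and edgeR and DESeq2 called 10 lower and 0 higher. At an unadjusted limma p under 0.05 there were 14 lower and 0 higher, beside the 22.8% and 23.9% of all genes. MYBL2 (-3.29 ± 0.30), E2F1 (-2.64 ± 0.11) and FOXM1 (-2.53 ± 0.16), factors that drive S-phase and mitotic genes, fell most. RB1, the target of CDK4 and CDK6, had a log2 fold change of -0.41 ± 0.12 (limma adjusted p = 0.0149) and was not called, being under the fold limit. Of 14 genes of cyclin turnover, all tested, 6 were called lower and 0 higher by limma, edgeR and DESeq2, with a median of -0.29. At an unadjusted limma p under 0.05 there were 8 lower and 1 higher, beside the same 22.8% and 23.9%. The 1 higher was FBXO31 (0.52 ± 0.17, limma adjusted p = 0.0236), which missed the call only through the 1.5-fold limit. UBE2C (-3.27 ± 0.12), CDC20 (-3.01 ± 0.22) and UBE2S (-1.72 ± 0.13), which serve the anaphase-promoting complex that destroys cyclins A and B, fell most.

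**Figure D4:**
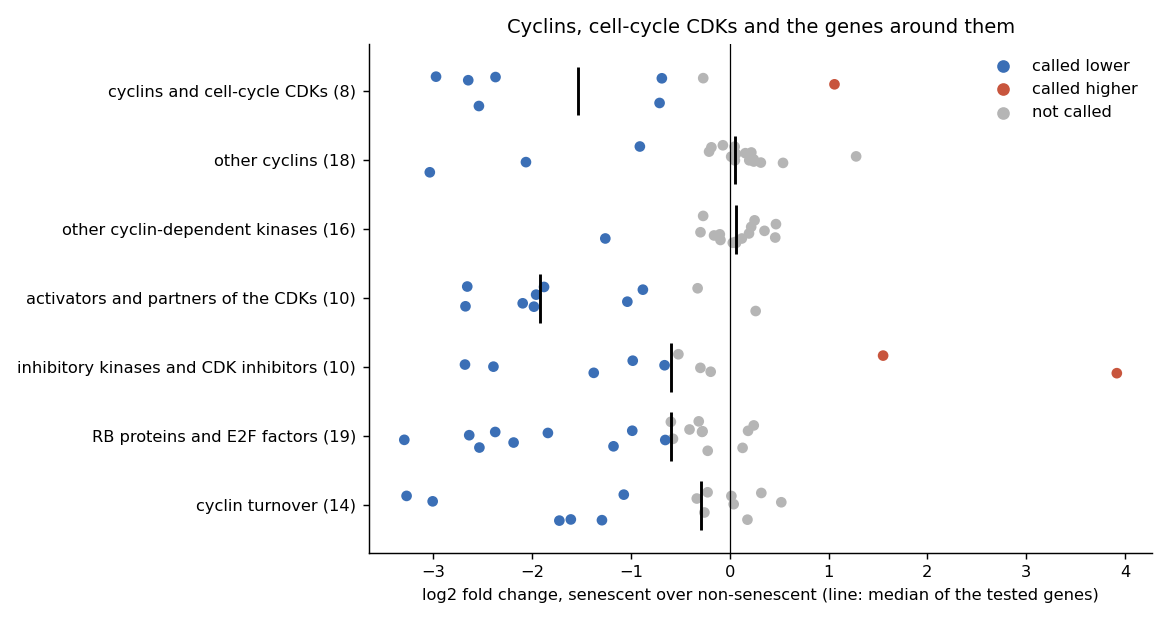
Log2 fold change of senescent over non-senescent cells (x axis) for the tested genes of each list (number tested in brackets), coloured by whether they were called lower, higher or not, with a line at the median. The median was -1.54 for the 8 cyclins and cell-cycle CDKs, -1.92 for the activators and partners and 0.06 for the other cyclins, and CDKN1A is the point at 3.92.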

How the data were processed

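Poly(A) RNA of 12 samples was measured by CEL-seq2, which reads the 3′ end of transcripts. After trimming in Cutadapt, the authors counted reads per gene on GRCh38 in Salmon 0.13.1, and they deposited a DESeq2-normalised signal, read numbers divided by 1 size factor per library. All 196021 non-zero values (100%) were whole multiples (tolerance 0.001) of the smallest value of their column. The annotation, strand use and molecular identifiers are not stated. The authors deposited 6 columns of their own comparison, which were not used.

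limma 3.58.1 (R 4.3.3, with trend) was fitted to log2(normalised read count + 1) with batch and group for the 13847 genes with a mean of 5 or more, and called genes at an adjusted p under 0.1 and over 1.5-fold. Ratios were tested by exact permutation within batch at an adjusted p under 0.05. The log scale understates changes of low genes. Errors in the text are this fit's SE unless named SD. edgeR 4.0.16 and DESeq2 1.42.0 on the recovered reads, pseudocounts, filters, scalings, the batch term, a replicate block, single batches and leaving out each library were alternatives. The fit was tested on simulated data. Replicates of 1 group and batch had a chi-square per degree of freedom of 4.28 to 8.05, more than read sampling alone gives, so no pair looked like a repeat deposit of 1 library. Reads copied by amplification also raise this value, so it does not show separate cultures, and samples were counted as labelled. The labels name no separate cultures, so p-values measure the spread between samples, which may be technical.

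Positions and overlaps came from GENCODE v44 (GRCh38). The genes and lists were chosen with earlier results of these data known. The other genes named were the 3 largest called changes of each list, 6 genes fixed by name, the 3 genes most like each member, and genes at a member’s 3′ end. PDX1, PCSK1, GCG, SST, CCNG2, CCNK, CCNL2, CCNT2, FBXO31, CDKN1C, CDK7, CDK9 and CDK12 were named after their values were seen.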

Additional observations from a re-analysis of the deposited data

How the results depend on the processing

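CDK1, CCNB1, CCNA2 and CDK2 kept their call and direction in all 24 alternatives, with log2 fold changes between -3.24 and -2.84, -3.01 and -2.46, -2.78 and -2.41, and -2.70 and -1.71 among those that left no single library out. CDK4 lost its call only in batch A alone. The CCNE1 call was lost in 12 of 23 alternatives, with a value between -0.81 and -0.58 when a library was left out. The count called higher became 0 with a filter at a mean of 20, which removes CDK6, and 0 in batch A alone. Without the batch term 2143 genes of all were called in place of 3237. The replicate names did not pair the samples (r of same-named libraries -0.05 to 0.02), and with a replicate block 3211 genes were called, CCNE1 was not (limma adjusted p = 0.101), and the CDK6 to CDK4 difference of 1.77 had an adjusted exact p of 0.0625, since 64 sign changes allow no p under 0.0312. For the same ratio batch A alone gave 0.86, with no p under 0.333 possible, and batch B alone 2.22 (adjusted exact p = 0.0571). CDK2 to CDK1 passed the exact test with a pseudocount of 8 (0.87, adjusted p = 0.00952), and its difference was 0.48 to 0.73 when a library was left out, passing without non-senescent B2 (0.73) or senescent B1 (0.72). The causes were not tested. CDK6 and CCNE1 rest on 5 to 43 reads per library. CDK6 was called in batch B alone (1.38, limma adjusted p = 0.0203), which was shallower but had 4 samples per group. It was not called in batch A, which was deeper but had 2 per group. The batch by group interaction of CDK6 was not called (limma adjusted p = 0.499).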
